A study of Mus musculus with 8 samples.

Results

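Calcium handling genes are described here in cardiomyocytes of newborn mice that had been exposed to diesel exhaust before birth. The set holds 10 genes: Cacna1c, Ryr2, Casq2, Hrc, Jph2, Atp2a2, Pln, Sln, Slc8a1 and Camk2d. They are a list by name of core genes of excitation-contraction coupling, which applies no threshold to measured values, and all 10 were found among the 27179 genes of the count table.

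Neonatal cardiomyocytes (NCMs) came from male C57Bl/6 J pups on postnatal day 0. Dams breathed filtered air (FA) or diesel exhaust (DE) from E0.5 to E17.5 of gestation, with DE given for 6 h per day on 5 days per week. Each library was made from polyadenylated RNA of 1 neonatal heart, trimmed of atria and vessels and depleted of fibroblasts by letting them attach to a plate. There were 4 FA libraries (replicates 2, 3, 4 and 6) and 4 DE libraries (replicates 1, 3, 5 and 7), and which pups shared a dam is not given in the sources used here, so p-values measure the spread between these hearts. The library names carry a prefix of 11 for all FA libraries and for DE replicates 1 and 7, and a prefix of 12 for DE replicates 3 and 5, whose meaning is not given in the sources used here.

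In a cardiomyocyte, depolarisation opens L-type calcium channels in the surface membrane, and the calcium that enters opens ryanodine receptors in the facing sarcoplasmic reticulum, whose stored calcium then drives contraction. Relaxation follows as the calcium pump SERCA returns calcium to the store and the sodium-calcium exchanger moves the rest out of the cell. At birth this system is still maturing: membrane invaginations (T-tubules) are sparse and the store is small compared with that of the adult.

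Totals ranged from 17943024 to 39839737 counts per library. The 10 genes together held between 1.42% and 1.90% of the counts in FA libraries and between 1.16% and 1.41% in DE libraries, so that DE replicate 1, the highest of its group, lay just under FA replicate 6, the lowest of its group. Levels are given as CPM, the count of a gene per 1e6 counts of its library, after TMM scaling, which adjusts each library for its composition. A gene was called when its p from edgeR's quasi-likelihood test, adjusted over all 14966 tested genes by the Benjamini-Hochberg method, did not exceed 0.05 and the higher group was at least 25% above the lower one, counted from the lower group in either direction. Summed CPM of the ventricular cardiomyocyte markers overlapped between the groups, at 46493 to 52243 in FA and 46032 to 55388 in DE. That sum includes Myh7, the beta myosin heavy chain, which was called higher in DE (10022 ± 944 CPM in FA, 14494 ± 852 CPM in DE; mean ± SD, 4 libraries each). Without it the other 8 markers summed to 36183, 40458, 36518 and 43039 CPM in FA replicates 2, 3, 4 and 6 and to 31850, 31446, 33392 and 39859 CPM in DE replicates 1, 7, 3 and 5, where 3 of the 4 DE libraries lay below every FA library. These 8 include Ttn, the titin gene, with 113588 bases of exon, and levels of long genes differed between libraries, as described below. The sum was not taken without Ttn. In pooled RNA of this kind, fewer cells of a type and less RNA per cell cannot be told apart.

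Transcripts of the reuptake pump and of its main inhibitor were lower in DE NCMs. Atp2a2, which encodes SERCA2, fell by 29.7%, and Pln, which encodes phospholamban, fell by 23.3%. They were the only 2 of the 10 genes called, and both were lower, against 5.8% of all tested genes called in either direction and 2.22% called as lower. They were also the only 2 whose libraries did not overlap between the groups, against 14.7% of all tested genes. Before adjustment, 5 of the 10 had p under 0.05 (Atp2a2, Pln, Cacna1c, Slc8a1 and Ryr2), all lower in DE, against 25.6% of all tested genes. Of the 10, 7 had a lower and 3 a higher mean in DE, and the median log2 fold change was -0.26, against 0.00 for all tested genes.

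**Figure D1:**
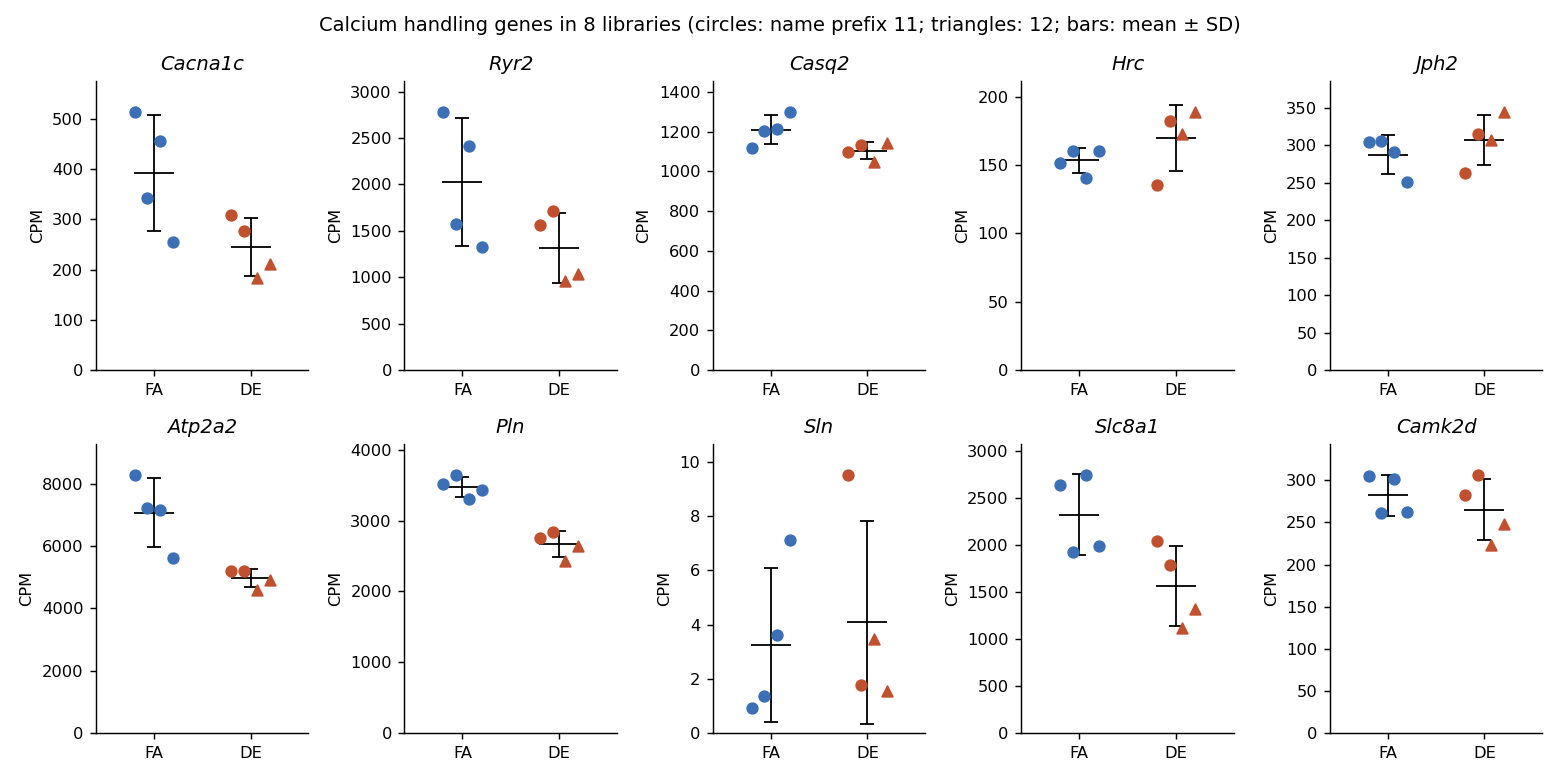
CPM of each of the 10 genes (vertical axes, linear from 0) in the FA and DE libraries, with circles for name prefix 11, triangles for prefix 12, and bars for the mean ± SD of 4 libraries. Atp2a2 and Pln have every DE point below every FA point, whereas the points of the other 8 genes overlap.

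Atp2a2 (Entrez 11938, chr5:122453513-122502225, minus strand, GRCm38) had the highest CPM of the 10, a scale that does not account for length. SERCA2 is the ATP-driven pump that refills the sarcoplasmic reticulum and thereby sets the speed of relaxation. Its level was 8286, 7207, 7147 and 5603 CPM in FA replicates 2, 3, 4 and 6, and 5188, 5202, 4574 and 4899 CPM in DE replicates 1, 7, 3 and 5. All 4 DE libraries lay below all 4 FA libraries, which were spread more widely, and FA replicate 6 was the FA library nearest to the DE group. The 4 FA libraries averaged 7061 ± 1104 CPM and the 4 DE libraries 4966 ± 296 CPM (mean ± SD). The log2 fold change was -0.51 with a standard error of 0.12 (95% interval -0.78 to -0.24), at an edgeR adjusted p of 0.0362. Within prefix 11, where 2 DE libraries remained, the log2 fold change was -0.45 and the edgeR adjusted p was 0.188. The call was lost when FA replicate 2, 3 or 4 was left out (edgeR adjusted p of 0.118, 0.0720 and 0.0996) and when DE replicate 7, 3 or 5 was left out (0.0535, 0.110 and 0.0732), while the log2 fold change stayed between -0.61 and -0.42.

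Pln (Entrez 18821, chr10:53337667-53345987, plus strand) encodes the small membrane protein that lowers the calcium affinity of SERCA2 until it is phosphorylated. It was at 3515, 3650, 3306 and 3436 CPM in FA replicates 2, 3, 4 and 6, and at 2754, 2844, 2428 and 2644 CPM in DE replicates 1, 7, 3 and 5. The FA libraries lay close together, and the highest DE library was well below the lowest FA library. The 4 FA libraries averaged 3477 ± 144 CPM and the 4 DE libraries 2668 ± 179.55 CPM (mean ± SD). DE was lower by a log2 fold change of -0.38 with a standard error of 0.09 (95% interval -0.58 to -0.18), at an edgeR adjusted p of 0.0360. Within prefix 11 the log2 fold change was -0.32 at an edgeR adjusted p of 0.215. The call was lost without FA replicate 2, 3, 4 or 6 (edgeR adjusted p of 0.107, 0.0756, 0.0908 and 0.0557) and without DE replicate 3 or 5 (0.116 and 0.0761), with a log2 fold change between -0.42 and -0.34 in every fit that left out 1 library. In GENCODE vM21, 59.6% of the exon bases of Pln also lie in exons of Gm47644 on the other strand, and since the strand setting of the counting is not given in the sources used here, reads of the pair may not have been told apart.

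The bases just before the Pln transcription start are shown because Pln had the smallest relative spread among FA libraries (a coefficient of variation of 4.14%) and was called. They are followed by the same stretch of Casq2, the next least variable at 6.09%, which was not called. Both are the 250 bases before the RefSeq start on GRCm38.p6, plus strand, chr10:53337436-53337685 for Pln and chr3:102086165-102086414 for Casq2. Capitals mark matches to the GATA letters (the letters GATA with A or T before them and A or G after them), to the E-box letters (CANNTG) or to the MEF2 pattern, on either strand.
Pln: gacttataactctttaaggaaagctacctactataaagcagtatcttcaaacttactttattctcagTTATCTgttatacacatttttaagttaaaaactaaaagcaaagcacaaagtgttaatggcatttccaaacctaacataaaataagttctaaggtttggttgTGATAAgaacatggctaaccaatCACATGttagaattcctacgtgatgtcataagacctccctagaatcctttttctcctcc
Casq2: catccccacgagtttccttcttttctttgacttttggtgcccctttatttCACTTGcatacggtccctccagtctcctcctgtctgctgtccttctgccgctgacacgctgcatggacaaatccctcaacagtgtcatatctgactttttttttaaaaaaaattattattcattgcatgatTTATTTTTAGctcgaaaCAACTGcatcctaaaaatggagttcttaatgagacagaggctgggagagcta

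The Pln stretch was 32.8% G and C and held GATA letters starting 183 and 82 bases before the start and an E-box 59 bases before it. The Casq2 stretch was 41.6% G and C, with a MEF2 match 69 bases before the start and E-boxes 200 and 52 bases before it. Among the 8 genes of the set with such a stretch in RefSeq (11 stretches in all, with Atp2a2 and Sln having none in the table used), 3 held GATA letters, 7 an E-box, 1 a MEF2 match, 4 the Sp1 letters GGGCGG, 2 the nuclear receptor half-site AGGTCA and 1 the letters TATAAA. The letters CATTCC (MCAT) and the CArG pattern were found in 0 of the 8. Over all 32851 such stretches of the mouse, GATA letters were in 26.5%, E-boxes in 66.2%, MEF2 matches in 1.69%, GGGCGG in 32.7%, AGGTCA in 14.0%, TATAAA in 12.4%, CATTCC in 12.6% and CArG matches in 1.47%. These shares of the mouse are per stretch, whereas a gene of the set counted when any of its stretches matched, so the 2 are not on 1 scale. These matches describe letters and not binding.

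Sln (Entrez 66402, chr9:53850164-53854560, plus strand) encodes sarcolipin, another small inhibitor of SERCA, found mainly in atrial and skeletal muscle. It was near the bottom of the measured range, with 34, 27, 64 and 145 counts in FA replicates 2, 3, 4 and 6 and 315, 33, 121 and 62 counts in DE replicates 1, 7, 3 and 5. Mean levels ± SD of 4 libraries were 3.25 ± 2.85 CPM for FA and 4.08 ± 3.74 CPM for DE. DE replicate 1 was above every FA library and FA replicates 2 and 3 were below every DE library, while the other libraries of the groups overlapped. The log2 fold change of 0.38 had a 95% interval from -1.08 to 1.85 and an edgeR adjusted p of 0.750, and it became -0.47 without DE replicate 1. The summed atrial markers were 584, 1108, 971 and 1346 CPM in FA replicates 2, 3, 4 and 6 and 904, 571, 868 and 726 CPM in DE replicates 1, 7, 3 and 5. Of the FA libraries, replicate 6 was highest and replicate 2 lowest both in this sum and in Sln CPM. Of the DE libraries, replicates 1 and 3 were the highest in both. The orders differed for FA replicate 3, second highest in the sum and second lowest in Sln CPM, and between DE replicates 7 and 5. The part of atrial cells in the Sln values was not tested.

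The ratio of phospholamban to pump transcripts was compared within each library, which removes library scaling. Pln counts divided by Atp2a2 counts gave 0.424, 0.506, 0.463 and 0.613 in FA replicates 2, 3, 4 and 6, and 0.531, 0.547, 0.531 and 0.540 in DE replicates 1, 7, 3 and 5. The 4 DE ratios were nearly alike and lay inside the FA range. The difference was 0.11 on the log2 scale, below the FA SD of 0.228 and above the DE SD of 0.0207. It was 0.036 without FA replicate 2 and 0.21 without FA replicate 6. A two-sided exact permutation test over the libraries gave p = 0.343, or 0.686 adjusted over the 5 ratios computed, where the smallest p that 4 against 4 libraries can give is 0.0286. Per kilobase of exon the 2 transcripts were of like abundance, at 1338 ± 209 CPM per kb for Atp2a2 and 1260 ± 52.2 CPM per kb for Pln in FA, and at 941 ± 56.1 and 967 ± 65.1 CPM per kb in DE (SD, n = 4 each).

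Among genes of calcium entry and release, the pore of the L-type channel and the release channel had lower means in DE that did not pass the test. Cacna1c (Entrez 12288, chr6:118587240-119196418, minus strand) encodes the pore subunit CaV1.2, through which the trigger calcium enters. It was at 513, 342, 455 and 255 CPM in FA replicates 2, 3, 4 and 6, and at 309, 276, 183 and 210 CPM in DE replicates 1, 7, 3 and 5. FA replicate 6 lay within the DE range, and the other FA libraries lay above it. DE was lower by a log2 fold change of -0.68 with a standard error of 0.22 (95% interval -1.16 to -0.20), at an edgeR adjusted p of 0.0892. Without FA replicate 6 it was -0.84 and passed, at an edgeR adjusted p of 0.0397. Within prefix 11 it was -0.42 at 0.410. DESeq2, which called 10.9% of all tested genes, called it at an adjusted p of 0.0309.

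Ryr2 (Entrez 20191, chr13:11553102-12106945, minus strand) encodes the cardiac ryanodine receptor, the channel that empties the store. Its levels were 2779, 1576, 2416 and 1324 CPM in FA replicates 2, 3, 4 and 6, and 1563, 1718, 959 and 1033 CPM in DE replicates 1, 7, 3 and 5. The FA libraries fell apart into 2 high and 2 lower ones, and the lower pair overlapped with DE replicates 1 and 7. Its log2 fold change was -0.62 with a standard error of 0.25 (95% interval -1.17 to -0.07) and an edgeR adjusted p of 0.152, and within prefix 11 it was -0.31 at 0.614. The ratio of Ryr2 to Cacna1c counts, release channel to trigger, was 5.42, 4.60, 5.32 and 5.20 in FA replicates 2, 3, 4 and 6 and 5.06, 6.23, 5.24 and 4.92 in DE replicates 1, 7, 3 and 5. The groups overlapped, with a difference of 0.06 on the log2 scale (exact permutation p = 0.600, 0.686 adjusted over the 5 ratios).

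Casq2, Hrc and Jph2, of the store lumen and of the junction between the membranes, were not called. Casq2 (Entrez 12373, chr3:102086415-102146514, plus strand) encodes cardiac calsequestrin, the calcium buffer of the store, and was at 1119, 1205, 1215 and 1299 CPM in FA replicates 2, 3, 4 and 6 and 1095, 1131, 1046 and 1141 CPM in DE replicates 1, 7, 3 and 5. Only FA replicate 2 lay within the DE range. Its log2 fold change of -0.13 had a 95% interval from -0.33 to 0.06 and an edgeR adjusted p of 0.370. Hrc (Entrez 15464, chr7:45335290-45338974, plus strand), the histidine-rich calcium-binding protein of the lumen, averaged 153 ± 9.46 CPM over the 4 FA libraries and 169.96 ± 23.9 CPM over the 4 DE libraries (mean ± SD), and its groups overlapped. Its log2 fold change of 0.15 had a 95% interval from -0.10 to 0.40 and an edgeR adjusted p of 0.442. Jph2 (Entrez 59091, chr2:163336242-163397993, minus strand), junctophilin 2, which tethers the surface membrane to the store, averaged 287 ± 25.6 CPM over the FA libraries and 307 ± 33.3 CPM over the DE libraries (mean ± SD of 4), with a log2 fold change of 0.10 (95% interval -0.14 to 0.34) and an edgeR adjusted p of 0.607.

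Casq2 counts divided by Ryr2 counts, buffer to release channel, gave 0.403, 0.765, 0.503 and 0.981 in FA replicates 2, 3, 4 and 6 and 0.701, 0.658, 1.09 and 1.10 in DE replicates 1, 7, 3 and 5. DE replicates 3 and 5 lay above every FA library, whereas DE replicates 1 and 7 lay within the FA range. The log2 difference was 0.47 (exact permutation p = 0.257, 0.686 adjusted over the 5 ratios). The 2 genes differ in exon length, at 2565 bases for Casq2 and 18230 for Ryr2. A ratio within a library keeps that library's trend with length, described below. The ratio was lowest in FA replicates 2 and 4, where that slope was highest, and highest in DE replicates 3 and 5, where it was lowest. The part of length in the ratios was not tested.

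For extrusion, Slc8a1 (Entrez 20541, chr17:81373105-81738377, minus strand) encodes NCX1, the sodium-calcium exchanger, which carries a larger part of relaxation in newborn than in adult rodent hearts. It was at 2640, 1928, 2750 and 1986 CPM in FA replicates 2, 3, 4 and 6 and 2046, 1785, 1116 and 1323 CPM in DE replicates 1, 7, 3 and 5. DE replicate 1 lay above FA replicates 3 and 6, and the other DE libraries lay below every FA library. DE differed by a log2 fold change of -0.57 with a standard error of 0.19 (95% interval -0.99 to -0.15) and an edgeR adjusted p of 0.0988. It passed without DE replicate 1, at -0.73 and an edgeR adjusted p of 0.0400, and by DESeq2 at 0.0430, while within prefix 11 it was -0.28 at an edgeR adjusted p of 0.457. Slc8a1 relative to Atp2a2, exchanger to pump, differed by -0.10 on the log2 scale (exact permutation p = 0.686, also 0.686 adjusted over the 5 ratios), and Sln relative to Atp2a2 by 0.87 (exact permutation p = 0.429, adjusted 0.686).

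Camk2d (Entrez 108058, chr3:126596302-126846326, plus strand) encodes the delta form of the calcium/calmodulin kinase that phosphorylates phospholamban and the ryanodine receptor. It was at 305, 261, 301 and 262 CPM in FA replicates 2, 3, 4 and 6 and 283, 307, 224 and 248 CPM in DE replicates 1, 7, 3 and 5. The groups overlapped, with the DE libraries of prefix 12 below those of prefix 11. Its log2 fold change of -0.09 had a 95% interval from -0.35 to 0.17 and an edgeR adjusted p of 0.658, and within prefix 11 it was 0.06.

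**Figure D2:**
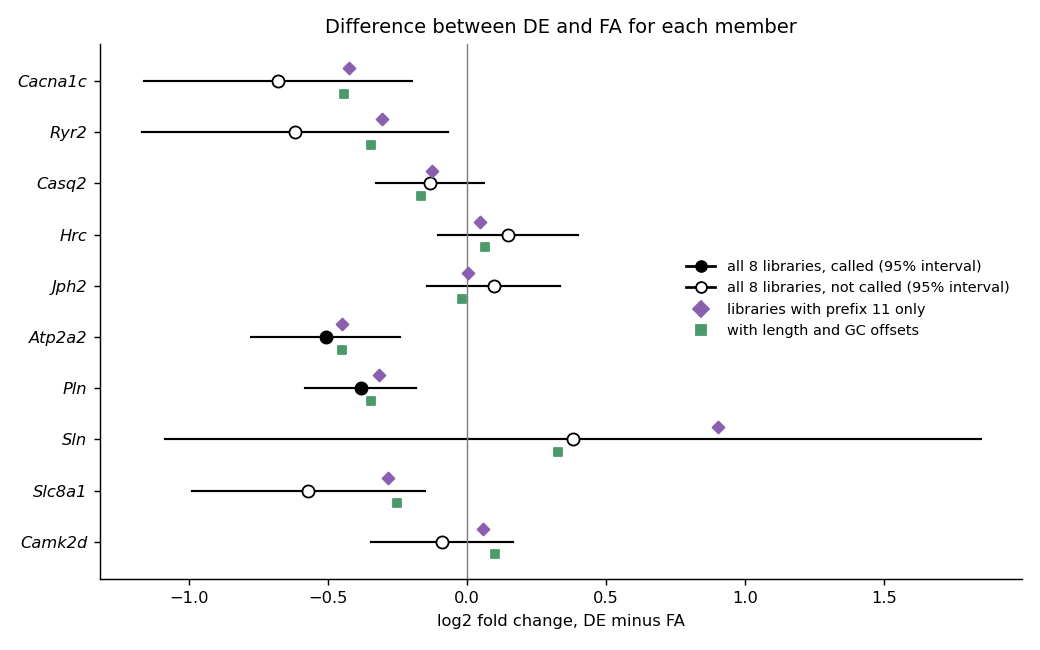
Log2 fold change of DE against FA (horizontal axis) for each of the 10 genes in all 8 libraries, with circles filled where called and lines for the 95% interval, beside the value in libraries of prefix 11 only (diamonds) and with length and GC offsets (squares). Atp2a2 and Pln are the filled circles, and these 2 genes as well as Cacna1c, Ryr2 and Slc8a1 lie nearer to 0 in both other fits.

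The 3 genes with an unadjusted p under 0.05 that were not called, Cacna1c, Ryr2 and Slc8a1, have the longest transcripts of the set (Casq2 and Camk2d, the other uncalled genes with a lower mean, are shorter), with 15219, 18230 and 18620 bases of exon. Across all tested genes the difference between DE and FA fell with exon length. The median log2 fold change was 0.16 for the 833 genes under 1000 bases, 0.02 for the 5385 genes from 2000 to 4000 bases, -0.09 for the 4411 genes from 4000 to 8000 bases and -0.32 for the 213 genes of 12000 bases or more, of which 82.2% were lower in DE. The slope of log2 level on length, relative to the mean of the libraries, was 0.137 and 0.121 per doubling of length in FA replicates 2 and 4, -0.0701 and -0.0176 in FA replicates 3 and 6, 0.0486 and 0.0349 in DE replicates 1 and 7, and -0.105 and -0.149 in DE replicates 3 and 5. Libraries of 1 group therefore differed among themselves in this slope. Cacna1c, Ryr2 and Slc8a1 were each highest in FA replicates 2 and 4 and lowest in DE replicates 3 and 5.

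An added fit removed each library's trend with length and GC content, and with it any difference between the groups that follows length. In it Ryr2 went from -0.62 to -0.35 and Slc8a1 from -0.57 to -0.25 (edgeR adjusted p of 0.104 and 0.105). Cacna1c went to -0.44 and was called (edgeR adjusted p = 0.0384). Atp2a2 at -0.45 and Pln at -0.34, with 5277 and 2759 bases of exon, were called in it as well (edgeR adjusted p of 0.0172 and 0.0231). With 3 of 10 members called, the share of all genes called in this fit was 11.0%.

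**Figure D3:**
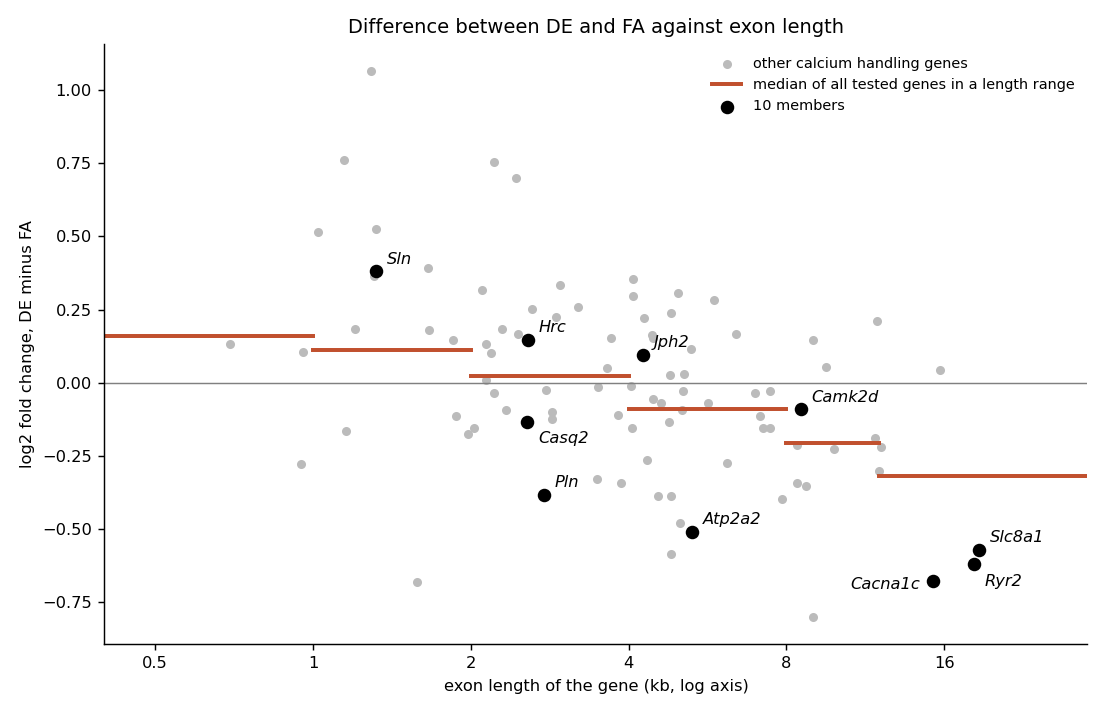
Log2 fold change of DE against FA (vertical axis) against exon length in kb (log axis) for the 10 genes (black, named) and the other tested calcium handling genes (grey), with the median of all tested genes in each length range (red lines). The red lines fall from 0.16 under 1 kb to -0.32 from 12 kb. Casq2, Pln, Atp2a2, Cacna1c, Ryr2 and Slc8a1 lie below the line of their range, and Sln, Hrc, Jph2 and Camk2d lie above it.

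Per kilobase of exon, the order of the levels in FA NCMs was Atp2a2, Pln, Casq2 (471.5 ± 28.7 CPM per kb), Slc8a1 (125 ± 23.0), Ryr2 (111 ± 37.7), Jph2 (67.5 ± 6.01), Hrc (59.8 ± 3.69), Camk2d (33.1 ± 2.82), Cacna1c (25.7 ± 7.58) and Sln (2.47 ± 2.16; SD, n = 4 each). The FA ranges of Atp2a2 and Pln, of Slc8a1 and Ryr2, and of Jph2 and Hrc overlapped, and the order within these pairs differed between FA libraries. The FA ranges of Camk2d and Cacna1c overlapped too, but within each FA library Camk2d was the higher. This pair was nearest in FA replicate 2, at 35.8 CPM per kb for Camk2d and 33.7 for Cacna1c. Ryr2 and Jph2 nearly met, with 72.6 CPM per kb in the lowest library of the former and 71.7 in the highest of the latter. In relative spread the set was uneven: the coefficient of variation among FA libraries was 4.14% for Pln and 6.09% for Casq2, but 29.5% for Cacna1c, 33.9% for Ryr2 and 87.6% for Sln.

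The cardiac paralog made up most of the transcripts of its family in 6 of 7 families. Of the summed level per kilobase, Atp2a2 took between 99.8% and 99.9% over the 8 libraries, Ryr2 between 99.3% and 99.8%, and Slc8a1 between 98.7% and 99.5%. Cacna1c took between 92.4% and 95.5%, Jph2 between 91.7% and 94.5%, and Casq2 between 90.1% and 94.2%, with Casq1, the skeletal muscle calsequestrin, at 34.6 CPM per kb in FA. The CaM kinase family was shared. Camk2d took between 35.4% and 46.4%, Camk2g between 34.6% and 42.7%, and Camk2a, best known from neurons, between 16.8% and 20.8%. Of the paralogs tested (Ryr1, Jph4 and Cacna1f were too low) edgeR's main test called none. Cacna1d, the pore CaV1.3, had a log2 fold change of -0.80 (edgeR adjusted p = 0.0839), and it was called by DESeq2, by the likelihood ratio test, without DE replicate 1, and with the length and GC offsets (-0.66, edgeR adjusted p = 0.0264). How reads shared by paralogs were counted is not given in the sources used here.

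The wider pathway was described with 93 other genes in 8 lists, of which 90 were found (Strit1, Erln and Arln were not matched) and 84 tested. Of these, 41 had a higher and 43 a lower mean in DE, and the median log2 fold change was -0.01. The test called 4 of the 84 (4.76%), against 5.8% of all tested genes. Of these 3 were lower (3.57%, against 2.22%) and 1 was higher (1.19%, against 3.58%). An unadjusted p under 0.05 was found for 18 of the 84 (21.4%), against 25.6% of all tested genes, and 10 were free of overlap between the groups (11.9%, against 14.7%).

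**Figure D4:**
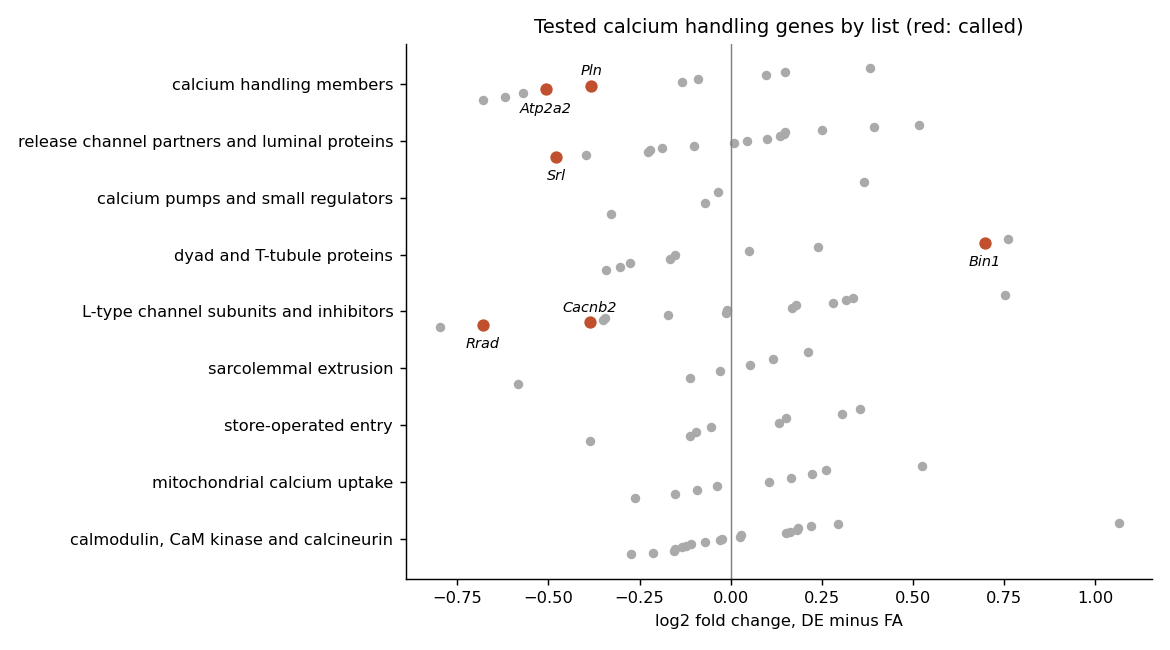
Log2 fold change of DE against FA (horizontal axis) for each tested gene of the set of 10 and of the 8 other lists (rows), with called genes in red and named. The points of every list spread to both sides of 0, and of the 84 other genes 4 are red.

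Among the release channel partners and luminal proteins, 1 of 15 was called (6.67%), near the 5.8% of all tested genes. Srl (Entrez 106393, chr16:4480216-4541816, minus strand) encodes sarcalumenin, a calcium-binding protein of the store that interacts with SERCA2. It was at 1922, 1829, 1891 and 1930 CPM in FA replicates 2, 3, 4 and 6 and at 1518, 1511, 1157 and 1249 CPM in DE replicates 1, 7, 3 and 5. Every DE library was well below the narrow FA range. The log2 fold change was -0.48 with a standard error of 0.11, at an edgeR adjusted p of 0.0304. Within prefix 11 it was -0.33 at 0.188, and the call was lost without FA replicate 2, 3, 4 or 6 (edgeR adjusted p of 0.0919, 0.0558, 0.0908 and 0.0536) or DE replicate 3 or 5 (0.0883 and 0.0710).

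Of the L-type channel subunits and inhibitors, 2 of 14 were called, both lower in DE, against 5.8% of all tested genes called and 2.22% called as lower; on so few genes this is a description of the 2. Cacnb2 (Entrez 12296, chr2:14603088-14987908, plus strand) encodes the beta subunit that brings the pore to the membrane, and was at 81.0, 77.4, 78.8 and 76.7 CPM in FA replicates 2, 3, 4 and 6 and at 66.9, 64.0, 50.7 and 58.5 CPM in DE replicates 1, 7, 3 and 5. All DE libraries lay below the FA range, those of prefix 12 the lowest. Cacnb2 had a log2 fold change of -0.39 with a standard error of 0.10, at an edgeR adjusted p of 0.0486, and -0.27 at 0.249 within prefix 11. The call was lost without any 1 library other than DE replicate 1, with an edgeR adjusted p of 0.141, 0.0801, 0.132 and 0.0653 without FA replicates 2, 3, 4 and 6 and of 0.0539, 0.132 and 0.102 without DE replicates 7, 3 and 5. It was also lost with the length and GC offsets (-0.28, edgeR adjusted p = 0.0579), with upper quartile factors (0.0503), with library totals alone (0.0734) and without the filter on low counts (0.0580).

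Rrad (Entrez 56437, chr8:104628070-104631327, minus strand) encodes the small GTPase Rad, which restrains L-type channels through the beta subunit. It was at 76.8, 86.0, 58.6 and 76.0 CPM in FA replicates 2, 3, 4 and 6 and at 55.4, 32.4, 48.7 and 48.8 CPM in DE replicates 1, 7, 3 and 5. The groups came close only at FA replicate 4 and DE replicate 1. For Rrad the log2 fold change was -0.68 with a standard error of 0.16, at an edgeR adjusted p of 0.0370, and within prefix 11 it was -0.76 at 0.102. The call was lost without FA replicate 2, 3 or 6 (edgeR adjusted p of 0.107, 0.0795 and 0.0626) or DE replicate 3 or 5 (0.0883 and 0.0634), and with library totals alone (0.0529).

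Of the dyad and T-tubule proteins, 1 of 9 was called, against 5.8% of all tested genes called and 3.58% called as higher. Bin1 (Entrez 30948), which bends membranes and helps to form T-tubules, was at 9.55, 9.07, 9.93 and 11.5 CPM in FA replicates 2, 3, 4 and 6 and at 11.6, 14.8, 21.0 and 17.3 CPM in DE replicates 1, 7, 3 and 5. DE replicate 1 was barely above FA replicate 6, and the DE libraries of prefix 12 were the highest. Bin1 was higher by a log2 fold change of 0.70 with a standard error of 0.17, at an edgeR adjusted p of 0.0389, and 0.39 at 0.232 within prefix 11. It was lost without FA replicate 2, 3 or 4 (edgeR adjusted p of 0.121, 0.0835 and 0.111) or DE replicate 7, 3 or 5 (0.0510, 0.110 and 0.0781), and by limma-voom (0.0507). With the length and GC offsets, a fit that called 11.0% of all genes, 3 of the 9 were called: Bin1 as higher (0.56, edgeR adjusted p = 0.0239), and as lower the caveolin Cav3 (-0.38, edgeR adjusted p = 0.0177) and the titin cap Tcap (-0.55, edgeR adjusted p = 0.00419), which were at -0.17 and -0.28 without the offsets.

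In the other 5 lists edgeR's quasi-likelihood test called 0 genes. These were 4 pumps and small regulators (0 with an unadjusted p under 0.05), 6 genes of sarcolemmal extrusion (0), 8 of store-operated entry (2), 9 of mitochondrial calcium uptake (2), and 19 of calmodulin, CaM kinase and calcineurin (1). Over all tested genes, 25.6% had an unadjusted p under 0.05. DESeq2 and limma-voom (5.75% of all tested genes called) also called 0 in each, and the likelihood ratio test (10.7%) called 1, in the calmodulin list. With the length and GC offsets Atp2b4, a plasma membrane calcium pump of the extrusion list, was called as higher (log2 fold change 0.43, edgeR adjusted p = 0.0137, against 0.21 and 0.469 without them). The medians of these 5 lists lay between -0.05 and 0.10 on the log2 scale.

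Markers of other cells were read beside these differences, where edgeR called 5.8%, DESeq2 10.9% and the likelihood ratio test 10.7% of all tested genes, and 25.6% had an unadjusted edgeR p under 0.05. All 8 fibroblast markers had a higher mean in DE, 2 of them called by edgeR and 6 by DESeq2 and by the likelihood ratio test, with an unadjusted edgeR p under 0.05 for 6, and their summed level was 2008 to 3461 CPM in FA and 3655 to 6177 CPM in DE, with no overlap. The other sums overlapped between FA and DE: atrial markers at 584 to 1346 and 571 to 904 CPM (1 of 8 called, higher), smooth muscle and pericytes at 1094 to 1743 and 769 to 1174 CPM (0 of 6 called), and endothelial cells at 980 to 1280 and 1043 to 1555 CPM (0 of 8). Erythroid markers were at 759 to 1880 and 1209 to 2022 CPM (1 of 6 called, higher), skeletal muscle at 1038 to 1386 and 1122 to 1451 CPM (0 of 8), and leukocytes at 14.1 to 20.9 and 17.7 to 29.1 CPM (0 of the 5 tested). Where edgeR called 0, an unadjusted p under 0.05 was found for 1 smooth muscle, 3 endothelial, 2 skeletal muscle and 1 leukocyte marker, and DESeq2 called 1, 2, 0 and 1 of these lists. Of the 9 ventricular markers 7 had a lower mean in DE and 1 was called, Myh7, which was higher. No marker was at 0 in every library. The part of these cell types in the lower Atp2a2, Pln, Srl, Cacnb2 and Rrad levels and in the higher Bin1 level was not tested.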

How the data were processed

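RNA-seq counts of NCMs from 4 FA and 4 DE neonates were used; the methods text states fewer RNA-seq samples per group than these, and all 8 were used because each is labelled with its group. Per the labels and methods, the authors aligned reads to mm10 with the Ensembl transcriptome using TopHat, flagged duplicates with Picard but kept them, ran GATK for realignment and recalibration, and obtained fragment counts from featureCounts. The deposited file holds these counts, not normalized, for each Entrez gene. The counting annotation, strand setting and handling of shared reads are not given in the sources used here. Marked duplicates may not be independent molecules, so depth may overstate precision. Their share is not given in the sources used here.

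Entrez numbers were matched to symbols for 25275 of 27179 genes through a RefSeq table of GRCm38.p6. Genes were filtered with filterByExpr (minimum count 10), scaled by TMM and tested in edgeR 4.0.16 under R 4.3.3 (glmQLFit and glmQLFTest), with exposure alone in the model and p-values adjusted by Benjamini-Hochberg over 14966 genes. The biological coefficient of variation was 15.9%. All 10 genes of the set passed the filter. DESeq2 1.42.0 and limma 3.58.1 (voom) were alternatives, together with other scaling factors, filters, a 25% difference, counted from the lower group, built into the test, the name prefix as a term or held constant, and leaving out each library. Fits with per-library offsets, natural splines with 5 degrees of freedom in exon length and GC content, were added after the data were seen; 95.6% of tested genes had both properties. Exon length was the union of exons of GENCODE vM21 basic transcripts. Ratios of 2 genes were log2 values of counts with 0.5 added, compared by exact permutation. The fits were tested on simulated data. Within groups, the most alike libraries (FA replicates 2 and 4) had a chi-square per gene of 5.37, above sampling noise. The other pairs within a group lay between 17.1 and 70.1, so this pair stood apart. The sources used here do not say whether these 2 pups shared a dam or a preparation. All 8 libraries were kept.

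The members, lists and alternatives were chosen with earlier results of these data known. Named genes are the 10 members, their paralogs, called genes of the pathway lists and, by Pearson's r over the 8 libraries, the 3 genes most like Cacna1c and like Atp2a2. Myh7, Ttn, Gm47644 and the genes called only under an alternative (Atp2b4, Cav3, Tcap, Cacng7, Fkbp1a and Trdn) were named after their values or positions were seen.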

Additional observations from a re-analysis of the deposited data

How the results depend on the processing

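The call of 2 members became 4 by DESeq2 and 4 by the likelihood ratio test (Cacna1c and Slc8a1 joining), 1 (Atp2a2) with library totals alone, 1 (Atp2a2) without the filter, and 0 with 25% built into the test, with the prefix as a term and in prefix 11 only, where 3, 2 and 2 members had an unadjusted edgeR p under 0.05 (9.94%, 17.9% and 16.6% of all genes). The share of all genes called moved too, to 10.9%, 10.7%, 6.82%, 3.98%, 0.762%, 2.99% and 1.75% in these 7 settings. Leaving out 1 library gave 0 to 3 members (3 without DE replicate 1, 1 without DE replicate 7 and 2 without FA replicate 6, where 7.93%, 4.58% and 5.34% of all genes were called, and 0 without FA replicate 2, 3 or 4 or DE replicate 3 or 5, where 4 or 5 members had an unadjusted edgeR p under 0.05, against 18% to 25.3% of all genes, and 1.53% to 3.56% of all genes were called). The number of other pathway genes called, 4, became 8 by DESeq2, 9 by the likelihood ratio test, 7 with length and GC offsets (Atp2b4, Cacna1d, Cav3 and Tcap joining and Cacnb2 lost), 1 with the prefix as a term, 1 in prefix 11 only (both times Cacng7, an L-type channel subunit outside the 4, at 0.97 and an adjusted p of 0.0475 in prefix 11) and 0 with 25% built into the test (7 with an unadjusted p under 0.05). Leaving out 1 library gave 0 to 6 genes, partly others than the 4 (Cacna1d and Fkbp1a besides the 4 without DE replicate 1, Trdn without DE replicate 7, Cacng7 alone without DE replicate 5).

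Signs reversed for Sln (-0.47 without DE replicate 1, in a range from -0.47 to 1.14 over the fits that left out 1 library), Jph2 (-0.018 with offsets) and Camk2d (0.062 with the prefix as a term, 0.058 in prefix 11 only, 0.10 with offsets), none of them called. The cause was not tested. Atp2a2 stayed lower in 21 of 21 alternatives (-0.61 to -0.42, adjusted p 0.00299 to 0.368) and lost its call in 9. Pln stayed lower in 21 of 21 (-0.42 to -0.31, adjusted p 0.000314 to 0.675) and lost it in 11. The 5 ratios moved by less than the SD pooled over both groups in all 9 of their alternatives, though at times by more than the SD of 1 group, and small ones changed sign: Slc8a1/Atp2a2 (0.16 in prefix 11 only, 0.015 without DE replicate 3) and Ryr2/Cacna1c (-0.015 without DE replicate 7). Casq2/Ryr2 was 0.12 in prefix 11 only and 0.26 without FA replicate 2, and Sln/Atp2a2 was 0.33 without FA replicate 2.

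Over all genes 332 were called lower and 536 higher. Library totals alone gave 217 and 803, length and GC offsets 776 and 798, prefix 11 only 117 and 143, and leaving out 1 library between 237 and 1168 in all. The 25% built into the test left 114 genes, DESeq2 called 1633. In prefix 12 there were only DE libraries, so no value can be had there.

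No paired analysis was possible because no pairing of FA with DE libraries is given in the sources used here.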

Other observations

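Genes whose levels ran most closely with those of 2 members over the 8 libraries, among the 9190 genes that averaged 10 CPM or more, were ranked by Pearson's r as a description; all points share libraries, depth and length slopes. For Atp2a2 they were Mtss1 (r = 0.987), Frmd6 (0.982) and Acss1 (0.981), with log2 fold changes of -0.38, -0.32 and -0.40 between DE and FA. For Cacna1c they were Nek9 (r = 0.991), Dip2c (0.991) and Zfp318 (0.985), with log2 fold changes of -0.22, -0.55 and -0.42. None of these 6 genes was called by edgeR (adjusted p of 0.0511, 0.0851 and 0.0672 for the former, and 0.213, 0.0773 and 0.108 for the latter).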
